A study of Mus musculus with 9 samples.

Results

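The T and NK lymphocyte genes described here are 35 genes of T cells and natural killer (NK) cells, taken by gene symbol, each read from the probe with the highest mean intensity over the 9 arrays. A probe was named for 34 of the 35, out of 19084 named genes and 23631 features in all; no probe named here carried Lck, the kinase that starts T cell receptor signalling. Total RNA was taken from olfactory mucosa, the tissue at the top of the nasal cavity where odours are sensed, of male wild-type C57BL/6 mice aged 6 to 8 weeks. The D1 group received dexamethasone, a synthetic glucocorticoid, for 1 day, the WK2 group received it daily by intraperitoneal injection for 2 weeks, and the control group received only saline for 2 weeks, with 3 arrays in each group. The dose of 1 mg/kg stands in the labels beside the 2-week treatment and is not restated for the 1-day treatment. Of 9 mice per group, only material chosen for its expression of olfactory marker protein reached the arrays. D1 and control therefore differ in agent and in length of injection, and nothing says that the 3 samples of a group are from separate animals, so the p-values rest on a spread that may be technical.

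T cells recognise antigen through a receptor whose signal is carried by the CD3 chains and CD247, then by the kinases Lck and Zap70 and the adaptor Lat. NK cells lack that receptor and kill through granules holding perforin and granzymes, which cytotoxic T cells share. Glucocorticoids are known to kill thymocytes and many resting lymphocytes, to redistribute lymphocytes between blood and tissues and to induce the interleukin 7 receptor in T cells. In the nose, T and NK cells lie scattered in the mucosa and gather in lymphoid tissue beneath it. Several of the genes are not restricted to T and NK cells: Ltb is also made by B cells, Il7r by other lymphoid cells, and Gata3 and Eomes by several non-lymphoid tissues.

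The promoters of the 4 genes of the CD3 and zeta chains are shown because these genes serve 1 receptor and yet did not differ in the same direction in WK2, and those of Ltb, Cd5 and Ctla4 because, like those of Cd3e and Cd3g, their WK2 arrays did not overlap the control arrays. Cd28, whose WK2 and control arrays did not overlap either, is among the genes with no window used here. Each is the RefSeq window in GRCm38.p6 of 250 bases before to 50 bases after the gene's start, read 5′ to 3′ along the gene's strand. Capitals mark the letters CAGGTG or, on the other strand, CACCTG, the core of an E-box that E proteins of lymphocytes are known to bind. Cd3d (chr9:44981536-44981835, plus strand) and Cd3g (chr9:44980382-44980681, minus strand) run apart from starts 1355 bases from each other, and Cd3e (chr9:45009562-45009861, minus strand) starts 27825 bases from Cd3d. The others are Cd247 (chr1:165788431-165788730, plus strand), Ltb (chr17:35194257-35194556, plus strand), Ctla4 (chr1:60908775-60909074, plus strand) and Cd5 (chr19:10738925-10739224, minus strand).
Cd3d: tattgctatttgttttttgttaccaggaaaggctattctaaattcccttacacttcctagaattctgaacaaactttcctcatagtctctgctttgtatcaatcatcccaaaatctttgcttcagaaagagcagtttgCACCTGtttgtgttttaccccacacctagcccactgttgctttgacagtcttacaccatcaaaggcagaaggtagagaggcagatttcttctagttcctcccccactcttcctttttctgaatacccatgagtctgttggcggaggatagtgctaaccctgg
Cd3g: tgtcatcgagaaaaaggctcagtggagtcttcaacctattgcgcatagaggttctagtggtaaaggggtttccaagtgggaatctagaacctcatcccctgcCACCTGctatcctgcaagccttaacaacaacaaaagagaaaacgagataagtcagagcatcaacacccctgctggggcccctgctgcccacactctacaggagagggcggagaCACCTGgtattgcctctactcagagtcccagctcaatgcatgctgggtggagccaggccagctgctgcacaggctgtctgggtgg
Cd3e: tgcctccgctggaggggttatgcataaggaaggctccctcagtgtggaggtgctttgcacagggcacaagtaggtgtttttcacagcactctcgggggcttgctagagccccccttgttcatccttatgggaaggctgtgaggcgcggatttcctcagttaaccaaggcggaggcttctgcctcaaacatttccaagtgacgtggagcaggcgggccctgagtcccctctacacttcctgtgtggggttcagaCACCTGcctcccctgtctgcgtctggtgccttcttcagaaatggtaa
Cd247: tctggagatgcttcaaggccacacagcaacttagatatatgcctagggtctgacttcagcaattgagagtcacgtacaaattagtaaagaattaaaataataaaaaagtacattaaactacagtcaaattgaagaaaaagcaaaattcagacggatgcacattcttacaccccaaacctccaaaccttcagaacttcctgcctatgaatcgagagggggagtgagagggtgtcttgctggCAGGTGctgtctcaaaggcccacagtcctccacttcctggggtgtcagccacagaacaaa
Ltb: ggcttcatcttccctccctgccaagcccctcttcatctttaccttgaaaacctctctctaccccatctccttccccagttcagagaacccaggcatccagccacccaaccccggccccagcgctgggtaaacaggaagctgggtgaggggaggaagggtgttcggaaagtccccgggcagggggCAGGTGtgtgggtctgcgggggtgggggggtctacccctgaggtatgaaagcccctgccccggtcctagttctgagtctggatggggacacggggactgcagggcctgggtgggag
Ctla4: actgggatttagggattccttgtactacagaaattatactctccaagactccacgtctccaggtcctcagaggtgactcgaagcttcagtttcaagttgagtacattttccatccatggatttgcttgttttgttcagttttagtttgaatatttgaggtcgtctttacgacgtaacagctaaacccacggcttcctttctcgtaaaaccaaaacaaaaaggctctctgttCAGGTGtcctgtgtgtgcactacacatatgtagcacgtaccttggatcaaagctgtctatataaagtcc
Cd5: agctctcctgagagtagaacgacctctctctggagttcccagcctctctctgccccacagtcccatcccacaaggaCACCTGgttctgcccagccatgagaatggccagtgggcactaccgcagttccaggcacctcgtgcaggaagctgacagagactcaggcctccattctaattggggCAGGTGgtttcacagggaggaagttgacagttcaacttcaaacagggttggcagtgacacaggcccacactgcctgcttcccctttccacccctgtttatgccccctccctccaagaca
CAGGTG, counted on either strand, lies at -112 from the start in Cd3d, at -148 and -35 in Cd3g, at 4 in Cd3e, at -10 in Cd247, at -66 in Ltb, at -19 in Ctla4 and at -174 and -69 in Cd5, where the number is the first letter of the match as printed. RefSeq's table held a window for 26 of the 35 genes. Of these 26, 12 (46.2%) hold CAGGTG on either strand, against 20% of the windows of all 27025 genes, 1 window a gene. The letters AGGAAGT, the core bound by ETS factors, lie in 10 of 26 (38.5%) against 9.57% of all windows, and TGTGGT, bound by RUNX factors, in 11 of 26 (42.3%) against 16.9%. The letters AGATAA, which factors of the Gata3 family bind, lie in 1 of 26 (3.85%) against 11.4%. AGAACA, an arm of the site that the glucocorticoid receptor binds, lies in 7 of 26 (26.9%) against 19% of all windows. These letters were chosen with the windows in view, both strands were searched for each, no 2 of these letter strings contain each other, and a match is a description of sequence, not of binding.

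None of the 34 measured genes passed the test in any comparison. The limma test over all 23631 features, at an adjusted p under 0.05, called 0 of 34 in D1 against control, where 0.00% of all features were called, 0 of 34 in WK2 against control (1.61% of all features) and 0 of 34 in WK2 against D1 (0.0931%). The smallest adjusted p among the 34 was 1 in D1 against control, 0.0859 in WK2 against control (Cd3e) and 0.279 in WK2 against D1 (Ctla4). At an unadjusted p under 0.05, 1 of 34 stood apart in D1 against control (2.00% of all features), 5 of 34 in WK2 against control (29.7%) and 0 of 34 in WK2 against D1 (19.2%). The median log2 difference of the 34 was 0.06 in D1 against control, 0.05 in WK2 against control and 0.06 in WK2 against D1, beside 0.03, 0.14 and 0.10 over all features. Differences above 0 were found in 22 of 34 genes in D1 against control (56.6% of all features), 22 of 34 in WK2 against control (62.7%) and 19 of 34 in WK2 against D1 (61.6%). With each array centred on its median, the WK2 median against control was -0.05 for the 34 genes and 0.04 for all features, so its sign depended on the scaling. In whole mucosa, fewer cells of a type and less RNA per cell cannot be told apart. Values below are intensities on the linear scale, and differences are of log2(intensity + 50), with standard errors (SE) from the fit over 9 arrays.

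**Figure D1:**
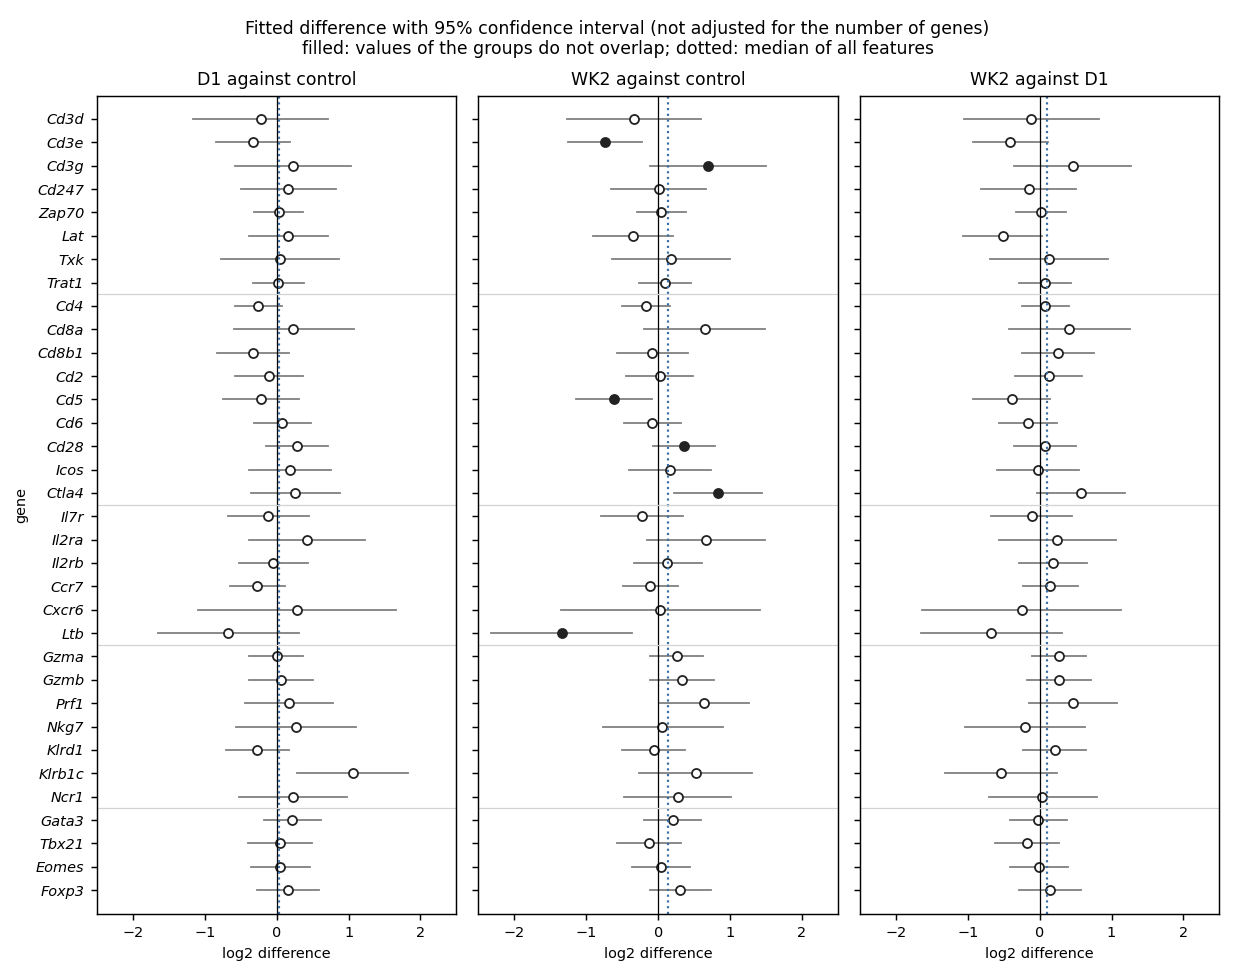
Fitted log2 differences of the 34 measured T and NK lymphocyte genes (rows, by role) in D1 against control, WK2 against control and WK2 against D1, with 95% confidence intervals not adjusted for the number of genes. Filled points mark genes whose arrays do not overlap between the groups, and the dotted line is the median of all features. There are 6 in WK2 against control (37.6% of all features), 0 in D1 against control (10.1%) and 0 in WK2 against D1 (31.4%). Cd3e, Cd5 and Ltb lie below 0 and Cd3g, Cd28 and Ctla4 above 0 among the filled points.

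Array medians were 1202 to 1447, and Pearson's r between arrays of 1 group across probes was 0.976 to 0.993. The table gives no detection calls. By mean intensity 10 of the 34 genes were dimmer than the 25th percentile of features (288). The 4 brighter than the median of features were Cd3e, Eomes, Zap70 and Txk, so most of these probes read low signals. The median residual SD of the 34 was 0.32 on the log2 scale, beside 0.25 over all features, and Cxcr6 (0.96), Ltb (0.67) and Cd3d (0.64) varied most within groups. Of the tissue's own markers, Omp, of mature olfactory sensory neurons and the gene the material was chosen on, averaged 408864 ± 79362 in D1 and 506735 ± 30933.5 in WK2, against 337461 ± 64145 in control (SD, n = 3 each). Foxj1 and Muc5b, of ciliated and secretory respiratory cells, were also bright, and 0 of 10 epithelial markers passed in any comparison. In WK2 against control 5 of the 10 had an unadjusted p under 0.05 (limma), beside 29.7% of all features. Every WK2 array was above control for 4 of them (23.8% of all features) and below for 2 (13.8%).

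D1 replicate 2 stood apart within the D1 group. It was the highest of the 9 arrays for 13 of the 34 genes, against 6.68% of all features, and it lay above both other D1 arrays for 24 of the 34, against 36.8% of all features. It exceeded their mean by more than 2-fold on the log2(intensity + 50) scale for 6 genes, namely Cxcr6 (6.77-fold), Cd3d (3.27-fold), Ltb (2.75-fold), Cd3g (2.38-fold), Cd247 (2.31-fold) and Nkg7 (2.23-fold), against 1.46% of all features. Not all of the genes were high there. Klrb1c, Ncr1 and Eomes differed there by -0.38, -0.22 and -0.22 on the log2 scale from the mean of the other D1 arrays, and Txk, a T cell kinase of the Tec family, by -0.90. Control replicate 2 was the lowest of the 9 arrays for 13 of the 34 genes, as it was for 32.3% of all features, while WK2 replicate 3 was the highest for 7 and for 31% of all features. D1 replicate 2 was singled out after its values were seen, and the results below that it moves most are given with and without it. Leaving it out lowers the D1 mean and the spread of the genes that were high on it. The p-values without it are therefore descriptions, not tests.

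Markers of other blood cells were also high on the same array. The median deviation from each gene's mean over 9 arrays on D1 replicate 2 was 0.82 for the 9 pan-leukocyte markers, 1.26 for 10 neutrophil markers, 0.53 for 8 erythroid and platelet markers, 0.30 for 15 macrophage and dendritic cell markers and 0.23 for 14 B cell and plasma cell markers, beside 0.28 for the 34 T and NK genes and 0.02 for all features. Control replicate 2 was also high in pan-leukocyte (0.55) and neutrophil markers (0.72). The T and NK genes there were at -0.13, beside -0.11 for all features. The erythroid and platelet median was also 0.35 on D1 replicate 1, 0.38 on WK2 replicate 1 and 0.40 on control replicate 2. For 9 mast cell and eosinophil markers the median was 0.15 on D1 replicate 2 and 0.34 on control replicate 2. Over the other 7 arrays the pan-leukocyte median ran from -0.57 to -0.11, the neutrophil median from -1.55 to 0.45 and the T and NK median from -0.16 to 0.09. The part of these cells in the T and NK values was not tested.

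**Figure D2:**
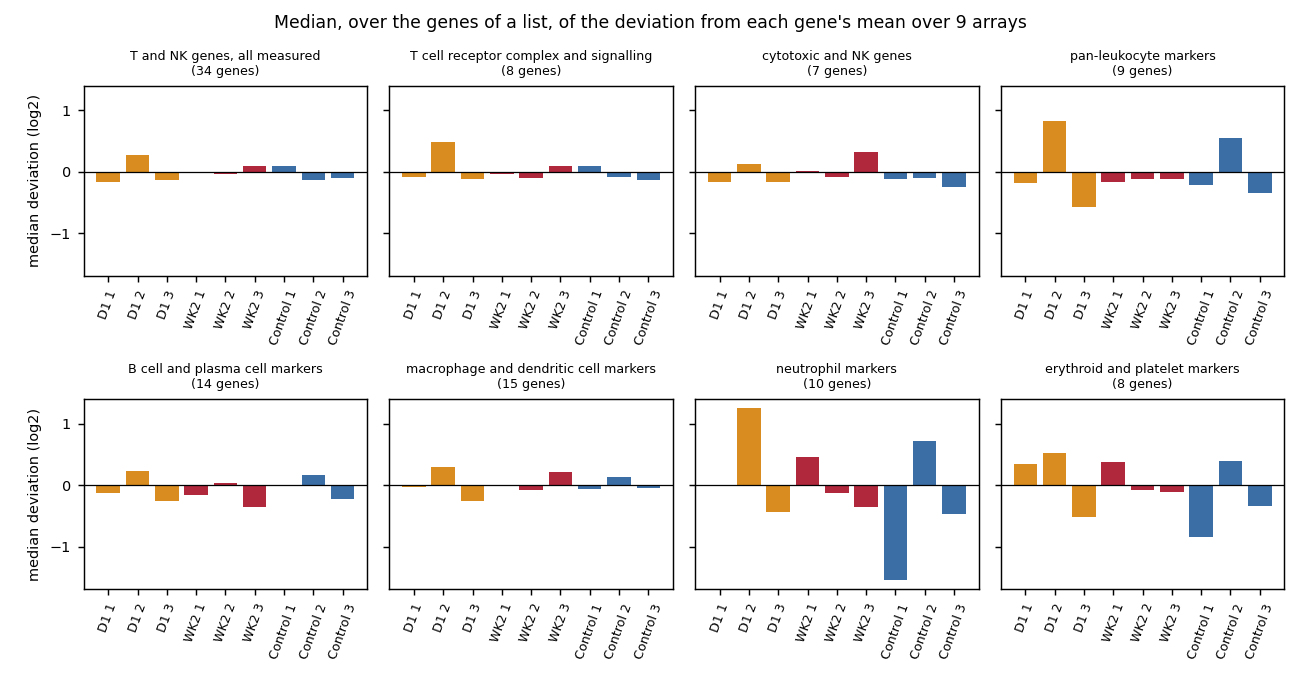
Median deviation on the log2 scale, over the genes of each list, from each gene's mean over 9 arrays, for every array (bars, D1 in orange, WK2 in red, control in blue). D1 replicate 2 is the highest bar for the T and NK genes (0.28) and for the neutrophil markers (1.26). Control replicate 2 is high for neutrophil (0.72) and pan-leukocyte markers (0.55). The T and NK genes there are at -0.13, near the median of all features on that array (-0.11).

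The genes of the T cell receptor complex differed in both directions in WK2, and none of the 8 measured passed. Their median was 0.03 in WK2 against control, and -0.07 with each array centred on its median. Cd3e, the epsilon chain, read 5108, 5557 and 3077 in WK2, against 6149.8, 8948 and 7493 in control. Every WK2 array was below every control array, and the difference was -0.74 ± 0.23 (SE) with an adjusted p of 0.0859 (limma). Cd3g, the gamma chain, read 857, 1405 and 1029.8 in WK2, against 803, 526 and 644 in control. Here every WK2 array was above every control array, with a difference of 0.69 ± 0.36 (SE) and an adjusted p of 0.224 (limma). Cd3d, the delta chain, read 502, 589 and 773 in WK2, against 975, 879 and 562 in control, and these overlapped, at -0.34 ± 0.42 (SE). Cd247, the zeta chain, read 574, 525 and 595 in WK2 and lay at 0.01 ± 0.30 (SE) against control. The Cd3e probe was brighter than 72.8% of features, beside 41.2% for Cd3g, 38.7% for Cd3d and 35.6% for Cd247. Whether these probes report the same cells was not tested. WK2 replicate 3 was the lowest of the 9 arrays for Cd3e, and without it the Cd3e difference was -0.48 at an unadjusted p of 0.026.

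In D1, a single array stood above the others for 3 of the 4 chains. Cd3d read 428, 1529.8 and 439 in D1 and Cd3g read 413, 1407 and 762. D1 replicate 2 was the highest of the 9 arrays for Cd3d, and for Cd3g it was level with WK2 replicate 2. Cd247 read 447, 1139 and 486 in D1, against 639.7, 594 and 457 in control, with the same array on top. Cd3e read 6429.8, 5511 and 5786, and there D1 replicate 2 was the lowest of the D1 group. Against control the D1 differences were -0.22 ± 0.42 (SE) for Cd3d, 0.23 ± 0.36 (SE) for Cd3g, 0.16 ± 0.30 (SE) for Cd247 and -0.33 ± 0.23 (SE) for Cd3e. Without D1 replicate 2 the differences were -0.79 for Cd3d, at an unadjusted p of 0.0132 and an adjusted p of 1 (limma), -0.19 for Cd3g, -0.24 for Cd247 and -0.29 for Cd3e, so all 4 fitted differences were below 0 and none passed the test. The array left out was picked for high values, 3 of these chains among them, so the lower differences without it follow in part from that choice. Single arrays still overlapped, as Cd3g and Cd247 on D1 replicate 3 were above control replicate 3.

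Downstream of the receptor, Zap70, the kinase recruited to the phosphorylated chains, had a residual SD of 0.15 on the log2 scale, under the median of 0.32 of the 34 genes. It read 2259, 2741 and 2157 in D1 and 2268, 2522 and 2415 in WK2, against 2478, 2010.1 and 2521 in control, with differences of 0.03 ± 0.15 (SE) and 0.04 ± 0.15 (SE). The 95% confidence interval of the WK2 difference was -0.30 to 0.39. Lat, the membrane adaptor that Zap70 phosphorylates, read 1035, 1795 and 894 in D1 and 988, 759 and 734 in WK2, against 1064, 1213 and 909 in control. WK2 overlapped both other groups for Lat, and its differences were -0.51 ± 0.25 (SE) against D1 (unadjusted p 0.0679) and -0.35 ± 0.25 (SE) against control. Without D1 replicate 2, which read the highest, the first was -0.22. Txk read 2356, 1049 and 1705 in D1 and 1636, 1096 and 3109.9 in WK2, against 1792, 1433 and 1486 in control, with WK2 replicate 3 the highest of all arrays. Trat1, which stabilises the receptor at the surface, stood between 115 and 184 on all 9 arrays, near the low end of the signal.

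**Figure D3:**
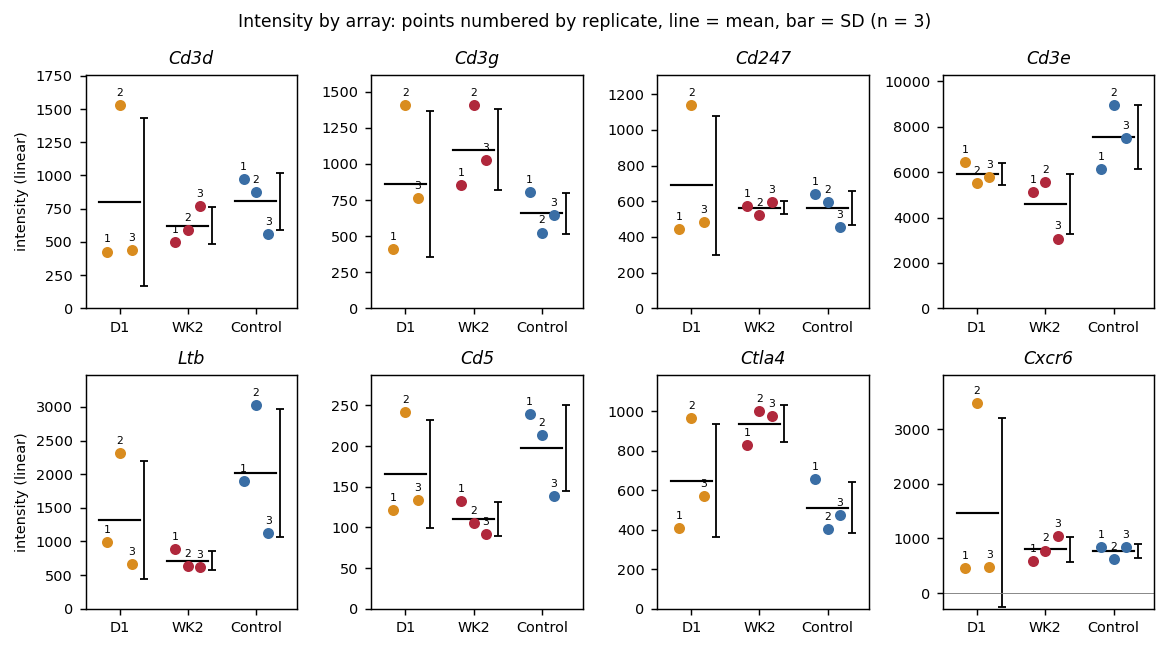
Intensity on each array (points, numbered by replicate) for 8 of the T and NK lymphocyte genes in D1, WK2 and control, with the mean (line) and SD (bar) of 3 arrays. In Cd3d, Cd247 and Cxcr6, D1 replicate 2 lies above all other arrays, while Cd3e, Ltb and Cd5 lie lower in WK2 than in control and Cd3g and Ctla4 higher, without overlap.

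Among coreceptors, neither Cd4 of helper T cells nor Cd8a and Cd8b1 of cytotoxic T cells stood apart. Cd4 read 218, 277 and 246 in D1 and 235, 256 and 303 in WK2, against 323, 311 and 276 in control. The control arrays stood mostly above the D1 arrays, though D1 replicate 2 (276.5) lay just over control replicate 3 (276.2), and the differences were -0.26 ± 0.15 (SE) for D1 and -0.17 ± 0.15 (SE) for WK2. Cd8a read 296, 752 and 644 in D1 and 769, 855 and 563 in WK2, against 704, 256 and 465 in control, with overlap throughout and control replicate 2 the lowest. Its WK2 difference of 0.65 ± 0.37 (SE) was 0.30 without control replicate 2. A dimmer probe of Cd8a read 581, 613 and 515 in D1 and 520.4, 596 and 584 in WK2, against 592, 334 and 583 in control, where that same control array was again the low one. Cd8b1 read 706, 1121 and 791 in D1 and 895, 1178 and 1046 in WK2, against 1453, 920.1 and 969 in control, at -0.33 ± 0.22 (SE) for D1 and -0.08 ± 0.22 (SE) for WK2. Without D1 replicate 2 the D1 difference of Cd8b1 was -0.52 (unadjusted p 0.0486), and this did not pass the adjusted test.

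Of the costimulatory genes Ctla4 and Cd28, neither passed, and both read higher in WK2 without overlap. Ctla4, the inhibitory receptor of activated and regulatory T cells, read 829.9, 1002 and 979 in WK2, against 656, 404 and 476 in control. All WK2 arrays were above all control arrays, with 0.83 ± 0.28 (SE), an unadjusted p of 0.0131 and an adjusted p of 0.0947 (limma). In D1 it read 408, 967 and 571, with D1 replicate 2 at the level of WK2 and the other arrays at that of control. Against D1 the WK2 difference was 0.57 ± 0.28 (SE), and 0.88 without D1 replicate 2 (unadjusted p 0.0041, adjusted p 0.229, limma). Cd28, the activating counterpart of Ctla4 that shares its ligands, read 457, 634 and 427 in D1 and 457, 655 and 493 in WK2, against 438, 345 and 429 in control. WK2 and control did not overlap for Cd28, at 0.36 ± 0.19 (SE) and an adjusted p of 0.23 (limma). With quantile normalization the Cd28 difference was 0.12, and control replicate 2 read the lowest of all arrays. Icos, a relative of both, lay at 0.17 ± 0.26 (SE) in WK2 against control, with its highest array again D1 replicate 2 (455).

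Cd5, which dampens T cell receptor signals, read 133, 106 and 91.8 in WK2, against 239.8, 214 and 138 in control. WK2 lay below control without overlap, at -0.61 ± 0.24 (SE), an unadjusted p of 0.0283 and an adjusted p of 0.129 (limma). In D1 Cd5 read 121, 242 and 134, with D1 replicate 2 the highest of all 9 arrays. The probe is dim, so a pseudocount of 500 shrinks any difference on it, and here brought its WK2 difference to -0.19. With quantile normalization the WK2 difference was -0.86 (adjusted p 0.0591, limma), which did not pass. Cd6, a related receptor, and Cd2, an adhesion receptor of T and NK cells, lay at -0.08 ± 0.18 (SE) and 0.02 ± 0.21 (SE) in WK2 against control. In D1 Cd6 lay at 0.08 ± 0.18 (SE) and Cd2 at -0.11 ± 0.21 (SE), and without D1 replicate 2 at -0.07 and -0.31.

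In WK2 against control, the arrays did not overlap for 6 of the 34 genes, 3 above (Cd3g, Cd28 and Ctla4) and 3 below (Cd3e, Cd5 and Ltb). Among all features 23.8% had every WK2 array above control and 13.8% every WK2 array below, 37.6% together, so these genes had a smaller share of separated groups than the background, as a description with no test. In D1 against control it was 0 of 34, where 10.1% of all features had groups that did not overlap, and in WK2 against D1 0 of 34, where 31.4% did.

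Ltb had the lowest difference of the 34 genes in WK2 against control. Ltb encodes lymphotoxin beta, the membrane ligand that maintains lymphoid tissue, and read 885, 639.7 and 624 in WK2, against 1900.0, 3023 and 1131 in control. Every WK2 array was below every control array, and among the control arrays replicate 2 was the highest and replicate 3 the lowest. The difference was -1.34 ± 0.44 (SE), with an unadjusted p of 0.0123 and an adjusted p of 0.093 (limma). Without control replicate 2 the unadjusted p was 0.0649 and the adjusted p 0.237 (limma). In D1 Ltb read 998, 2319 and 659.6. D1 replicate 2 lay within the control range, the other D1 arrays below it, and the D1 difference of -0.67 ± 0.44 (SE) was -1.15 without that array (unadjusted p 0.0123, adjusted p 1, limma). Of the B cell markers, which share Ltb, 0 of 14 passed the test in WK2 against control, with a median of -0.21, 6 above 0 and 8 below. Cd22, an inhibitory receptor of B cells, lay at -0.54 ± 0.15 (SE, adjusted p 0.0682, limma) and Fcrla at -0.80, while Pax5, the factor of B cell identity, lay at 0.60 (adjusted p 0.211) and Cd79a, of the B cell receptor, at 0.40 (adjusted p 0.213). The part of B cells in the Ltb value was not tested.

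The cytokine receptors gave no common direction. Il7r, the receptor chain for interleukin 7, on which resting T cells depend, read 608, 981 and 422 in D1 and 576, 537 and 641 in WK2, against 615, 661 and 813 in control. D1 spanned the whole range of the other groups, and the differences were -0.12 ± 0.25 (SE) for D1 (-0.41 without D1 replicate 2) and -0.23 ± 0.25 (SE) for WK2. The 95% confidence interval of the WK2 difference was -0.79 to 0.34. Il2ra, the interleukin 2 receptor chain of activated and regulatory T cells, read 1228, 1433 and 1876 in D1 and 1564, 2451 and 1452 in WK2, against 1537, 558 and 1532 in control, with the low control array being replicate 2. Its WK2 difference was 0.66 ± 0.36 (SE), and 0.20 without control replicate 2. Il2rb, the chain shared with interleukin 15, lay at 0.13 ± 0.21 (SE). Ccr7, the receptor that guides naive T cells to lymphoid tissue, read 449, 532 and 414 in D1 and 481, 507 and 576 in WK2, against 697, 554 and 469 in control, at -0.27 ± 0.17 (SE) for D1.

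Cxcr6, a homing receptor of resident T and NK cells, had the largest excess of the 34 genes on D1 replicate 2. It read 459, 3470.4 and 482 in D1 and 580.1, 778 and 1038 in WK2, against 839.6, 621 and 849.5 in control. D1 replicate 2 was far above every other array, and the other D1 arrays were below all WK2 and control arrays. The D1 difference was 0.28 ± 0.62 (SE) over 3 arrays and -0.64 without D1 replicate 2 (unadjusted p 0.0285, adjusted p 1, limma), so its sign depended on that array. The WK2 difference against D1 likewise was -0.25 ± 0.62 (SE) with it and 0.67 without it. Its ligand Cxcl16 lay at 0.91 ± 0.23 (SE) in WK2 against control, with 10648 ± 3230.1 (SD, n = 3) in WK2 and 5504 ± 659 in control, and did not pass (adjusted p 0.0631, limma).

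**Figure D4:**
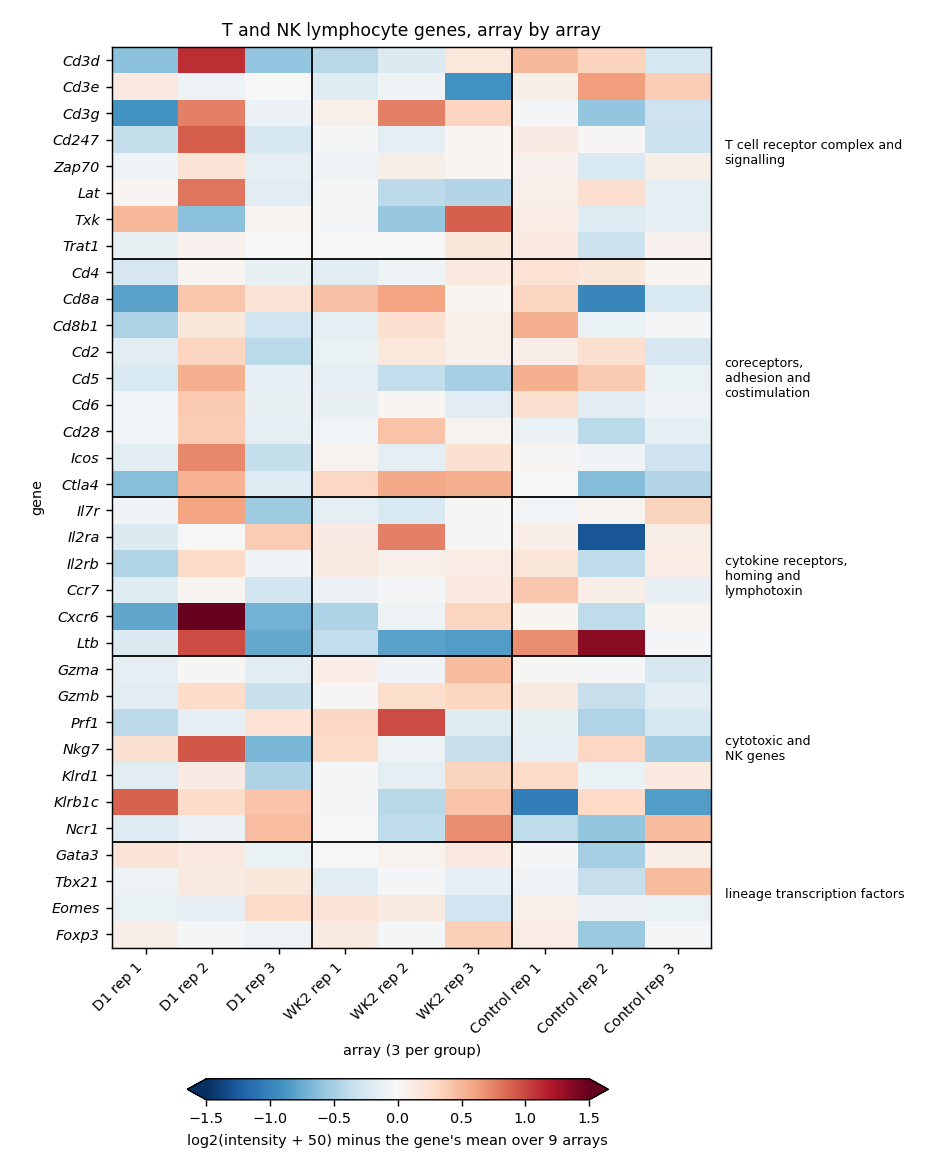
Deviation of log2(intensity + 50) from each gene's mean over 9 arrays for the 34 measured genes (rows, grouped by role) on the 9 arrays (columns, D1, WK2 and control). D1 replicate 2 is the highest array for 13 of the 34 genes, among them Cd3d, Cd247, Cxcr6 and Nkg7, and control replicate 2 is the lowest array for 13.

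The cytotoxic and NK genes had a median of 0.27 in WK2 and of 0.17 in D1, against control, with 6 of 7 and 5 of 7 above 0, where 62.7% and 56.6% of all features were. With quantile normalization these medians were 0.08 and 0.05, and 0 of 7 passed in any comparison. The median deviation of the 7 genes from their means over 9 arrays was 0.02, -0.08 and 0.33 on the WK2 arrays. On the control arrays it was -0.11, -0.10 and -0.24. Gzma, granzyme A, read 912, 1013 and 895 in D1 and 1081, 969 and 1413 in WK2, against 1015, 978 and 841 in control. The groups overlapped and WK2 replicate 3 was the highest array, with 0.26 ± 0.17 (SE) in WK2 against control and 0.27 ± 0.17 (SE) against D1. Prf1, perforin, read 111, 143 and 194 in D1 and 209.6, 365 and 135 in WK2, against 145, 104 and 125 in control. WK2 replicate 2 was the highest of the 9 arrays, and the difference of 0.64 ± 0.28 (SE) against control (unadjusted p 0.043, adjusted p 0.156, limma) was 0.33 without it. Gzmb, granzyme B, lay at 0.33 ± 0.20 (SE). Nkg7, a granule membrane protein, read 927, 1532 and 466 in D1 and 963, 737 and 602 in WK2, against 713, 978 and 530.4 in control, again with D1 replicate 2 the highest of all arrays. Klrd1, the CD94 partner of NK receptors, lay at -0.27 ± 0.20 (SE) in D1 and -0.06 ± 0.20 (SE) in WK2.

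Klrb1c, the NK1.1 antigen of NK cells in this mouse strain, gave the only unadjusted p under 0.05 of the 34 in D1 against control. It read 384, 235 and 267 in D1 and 182, 126 and 266 in WK2, against 64.2, 239 and 81.7 in control. Control replicate 2 overlapped D1 while both other control arrays lay near the low end of the signal, and the D1 difference was 1.06 ± 0.35 (SE) (unadjusted p 0.0127, adjusted p 1, limma). The probe is dim, so a pseudocount of 500 shrinks any difference on it, and here brought the D1 difference to 0.35. A dimmer probe of the gene read 109, 156 and 112 in D1 and 180.4, 135 and 182 in WK2, against 134, 124 and 142 in control. There D1 replicate 2 lay above every control array and the other D1 arrays below every one. This probe thus did not repeat the higher D1 level of the brighter one. The mean of both probes gave 0.49. Ncr1, the NK receptor NKp46 and the gene of the list most restricted to NK cells, read 86.2, 97.3 and 166 in D1 and 106, 69.6 and 204 in WK2, against 69.7, 54.1 and 167 in control. It was the dimmest of the 34, the 3 groups overlapped widely, and its differences were 0.23 ± 0.34 (SE) for D1 and 0.27 ± 0.34 (SE) for WK2.

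None of the 4 lineage factors passed. Foxp3, which defines regulatory T cells, read 730.2, 669.8 and 639.6 in D1 and 747, 664 and 879 in WK2, against 732, 443 and 667 in control. Control replicate 2 was the lowest of the 9 arrays, and the WK2 difference of 0.31 ± 0.19 (SE) had an adjusted p of 0.284 (limma). Gata3, the factor of type 2 helper T cells that epithelium also uses, read 491, 472 and 393 in D1 and 420.4, 439 and 472 in WK2, against 414, 286 and 456 in control, with the same control array low. Its differences were 0.22 ± 0.18 (SE) for D1 and 0.20 ± 0.18 (SE) for WK2. Tbx21, of type 1 helper T and NK cells, lay at -0.13 ± 0.20 (SE) and Eomes, of cytotoxic and NK cells, at 0.04 ± 0.18 (SE) in WK2 against control, with a 95% confidence interval of -0.36 to 0.44 for Eomes.

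Other genes of T and NK cells were read from wider lists. Of 23 measured T cell signalling and identity genes beyond the 34, 0 passed in any comparison, and the median was -0.12 in WK2 against control and -0.04 in D1. In WK2 against control 10 of the 23 had every WK2 array below control (13.8% of all features) and 3 every WK2 array above (23.8%), with 10 differences above 0 and 13 below. Lef1, a transcription factor of naive T cells that other tissues also use, read 133 ± 28.8 (SD, n = 3) in WK2 and 241 ± 40.7 in control, at -0.68 ± 0.18 (SE, adjusted p 0.0645, limma). Fyn, a kinase that can stand in for Lck, lay at -0.66. Nfatc2, a transcription factor activated by the receptor, lay at -0.79 and Satb1, a chromatin organiser of thymocytes, at -0.53. All 4 genes, Lef1 among them, had WK2 below control without overlap. Fyn averaged 3939 ± 762 (SD, n = 3) in control and Nfatc2 2681 ± 224, and the part of T cells in these values was not tested. On the other side Slamf6, a receptor of T and NK cells, lay at 1.25 ± 0.69 (SE, adjusted p 0.243, limma), Vav1, a signalling protein downstream of the receptor, at 0.82 ± 0.36 (adjusted p 0.162) and Ubash3a, a dampener of receptor signals, at 0.89 ± 0.38 (adjusted p 0.152), the first 2 with WK2 above control without overlap. Of 23 further cytotoxic and NK genes 0 passed, with a median of 0.31 in WK2 against control, beside 0.14 over all features. Their median deviation from the mean over 9 arrays was 0.08, 0.03 and 0.26 on the WK2 arrays. On the control arrays it was 0.03, 0.05 and -0.13, so WK2 replicate 3 stood highest. Of these 23, 18 were above 0, where 62.7% of all features were, and 5 below. Every WK2 array was above control for 6 of the 23 (23.8% of all features) and below for 3 (13.8%). Ifng, interferon gamma, read 2170.2 ± 353 in WK2 and 3793 ± 686 in control, at -0.79 ± 0.18 (SE, adjusted p 0.0553, limma), and in D1 it lay at -0.52. Above 0, Il18rap, a receptor chain for interleukin 18, lay at 0.60, Gzmc at 0.85 and the NK receptor gene Klre1 at 0.40, each with WK2 above control without overlap.

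Among 15 activation, checkpoint and regulatory genes 0 passed. In WK2 against control Nr4a1, an immediate early gene of receptor signalling and of many other cells, lay at 1.05 ± 0.29 (SE, adjusted p 0.0687, limma). S1pr1 lay at 0.57 ± 0.18 (SE, adjusted p 0.0843, limma) with every WK2 array above control, and Tnfrsf18, a receptor of regulatory T cells, at 0.44. Cd200, a ligand that restrains myeloid cells, lay at -0.50 (adjusted p 0.117) and Tnfrsf4, the costimulatory receptor OX40, at -0.43 (adjusted p 0.132, limma). The list had 9 above 0 and 6 below, with a median of 0.06. Every WK2 array was above control for 4 of the 15 (23.8% of all features) and below for 2 (13.8%). Of 21 survival cytokines, homing chemokines and adhesion genes 0 passed, with 13 above 0, 8 below and a median of 0.08 in WK2 against control. Il7, the ligand of Il7r, read 2694 ± 1057 (SD, n = 3) in WK2 and 1254 ± 220.1 in control, at 1.02 ± 0.30 (SE, adjusted p 0.0755, limma). Jak3, the kinase of the shared cytokine receptor chain, lay at -0.66 and Itga4, an integrin chain for homing, at -0.69. Ccl17, a chemokine for helper T cells, lay at -0.73 in D1 against control and at 1.42 in WK2 against D1 (adjusted p 0.117, limma). Of 11 innate lymphoid and type 17 genes 0 passed, with Il23r, a receptor chain of type 17 cells, at 1.34 ± 0.42 (SE, adjusted p 0.0844, limma) and Sox13, a factor of gamma delta T cells, at -0.87 ± 0.30 (adjusted p 0.103) in WK2 against control. That list had 7 above 0 and 4 below, with a median of 0.03.

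Of 11 glucocorticoid receptor targets described in T cells, 1 passed in WK2 against control, where 1.61% of all features did, and it fell. Il7r, described above, is also on this list. The list states no direction in which dexamethasone should move its genes, so a fall is not read here as the usual effect of the drug. The list had 3 above 0 and 8 below, with a median of -0.40, beside 0.14 over all features. In D1 against control 0 of the 11 passed, with 2 above 0, 9 below and a median of -0.19, beside 0.03. For 4 of the 11 every D1 array was below control, where 10.1% of all features had groups without overlap in either direction. Zbtb16 lay at -1.49 in D1. Whether these values are a response of T cells was not tested. Zbtb16, which encodes the factor PLZF of innate-like T cells and is also a target in other tissues, was 344 ± 101 (SD, n = 3) in WK2 and 2114 ± 701 in control, with a log2 difference of -2.44 ± 0.36 (SE, adjusted p 0.0353, limma). Its call held in 12 of 21 alternatives. It ended when 1 array was left out in 7 of 9 cases, namely each control array, D1 replicates 2 and 3 and WK2 replicates 2 and 3 (adjusted p 0.0553 to 0.149, limma), while the difference with each array left out ran from -2.67 to -2.20. It also ended with the replicate number as a block (adjusted p 0.105) and in the fit of the 2 groups alone (adjusted p 0.0667). Klf2, a factor of lymphocyte trafficking and of vessels, lay at -0.67 and Fkbp5 at -1.29, while Dusp1, a phosphatase that limits kinase signals, lay at 0.59 ± 0.17 (SE, adjusted p 0.0749, limma) with every WK2 array above control. None of these 3 passed. In the marker lists of other cells, Kit, of mast cells and melanocytes, fell in WK2 against control, at -1.11 (adjusted p 0.0396, limma), and it did not pass when 1 array was left out in 8 of 9 cases, all but WK2 replicate 1 (adjusted p 0.0648 to 0.149), nor with the replicate block (adjusted p 0.105) or in the fit of the 2 groups alone (adjusted p 0.113). Its difference with each array left out ran from -1.23 to -0.97. No other gene of these lists passed in that comparison, and none did in the others, at an adjusted p under 0.05.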

How the data were processed

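The data are 9 single-colour arrays of olfactory mucosa RNA. The labels' protocols name Trizol extraction, an integrity check (RIN of 7 or more), amplification of 1 µg RNA and Cy5 dye. The deposited values are intensity on a linear scale for 26423 probes, with 8 to 18 below 0 per array; no source used here gives the scanner, software or scaling. Probes took their names from GEO's platform annotation, with symbols brought up to date in RefSeq's GRCm38.p6 table (21876 with 1 symbol, 0 with several, 4547 with none; 21825 matched by gene ID). The brightest probe stood for a gene; 2 of the 34 genes have a second probe, which is described. Array medians differed by 0.27 on the log2 scale, under the limit of 0.5, so no normalization was added.

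Values below 0 were set to 0, and log2(intensity + 50) was tested with limma 3.58.1 in R 4.3.3 over all 9 arrays (lmFit, contrasts, eBayes), with Benjamini-Hochberg adjustment over 23631 features. The test was tried on simulated data. The genes and lists were chosen with earlier results of these data known. Of the 35 genes, values on every array were given for the 6 of the smallest p in each comparison and for Cd3d, Cd3e, Cd3g, Cd4, Cd8a, Il7r, Ncr1, Gzma, Foxp3 and Gata3; Cd247, Zap70, Txk, Cxcr6, Nkg7 and Il2ra were added after their values were seen. Of other lists, those past the test, otherwise up to 3 of the smallest p, were to be named, and any further ones were named after their values were seen. The 22 alternatives were other normalizations, dim-feature filters, mean of probes, pseudocounts of 16 and 500, moderation, the replicate block, the 2 groups alone, array weights, a threshold of 0.1 and leaving out each array.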

Additional observations from a re-analysis of the deposited data

How the results depend on the processing

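The count of T and NK lymphocyte genes past the test was 0 in each comparison in the 21 alternatives that kept an adjusted p under 0.05, leaving out each of the 9 arrays among them, with a smallest adjusted p of 0.0538 (Klrb1c in WK2 against control, with array weights, limma). At an adjusted p under 0.1 there were 3 in WK2 against control, namely Cd3e (0.0859), Ltb (0.093) and Ctla4 (0.0947), and 0 in the other comparisons. The median of the 34 genes ran from -0.12 to 0.13 in D1 against control, from -0.09 to 0.11 in WK2 against control and from -0.04 to 0.20 in WK2 against D1, and so changed sign between settings in each. With each array left out, it ran from -0.12 to 0.13, from 0.02 to 0.11 and from 0.00 to 0.20, and the lowest and highest in D1 against control were without D1 replicate 2 and without control replicate 1. The difference of single genes changed sign in at least 1 alternative for 22 of 34 genes in D1 against control, 17 in WK2 against control and 16 in WK2 against D1. Arrays with the same replicate number did not deviate together, with correlations of their deviations from -0.28 to 0.14; the fit with the replicate block called 0 of the 34 genes in each comparison, with a smallest adjusted p of 0.105 in WK2 against control. Quantile normalization and cyclic loess moved the WK2 median to -0.09 and -0.07. The number of all features called in WK2 against control, 380, was 1417 with quantile normalization, 1543 with median centring, 682 with cyclic loess, 576 and 1135 without the dimmest 25% and 50% of features, 131 and 779 at pseudocounts of 16 and 500, 2728 with array weights, 3594 at an adjusted p under 0.1, 1 with the replicate block, 0 in the fit of the 2 groups alone (limma) and 1 to 955 with each array left out. In WK2 against D1, 22 ran from 1 to 134. The 3 arrays in a group limit the precision, and the size of difference detectable for these probes was not measured.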
